A study of Homo sapiens with 2 samples.

Results

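The 8 proneural basic helix-loop-helix (bHLH) genes NEUROD1, NEUROD2, NEUROD4, NEUROD6, NEUROG1, NEUROG2, NEUROG3 and ATOH1 were examined for OTX2-bound regions in D283 tumorspheres. They were chosen by name, with earlier results of these data known. They are 8 of 19881 protein-coding genes, and 62 of the 137412 OTX2 peaks overlapped their gene records extended by 50 kb on each side. D283 is an established medulloblastoma cell line that, by the study's methods, has features of Group 3 and Group 4 tumours, and tumorspheres are floating colonies grown with EGF and bFGF on plates to which cells do not attach. The chromatin came from untreated OTX2+ control tumorspheres, and the design holds 1 library from an OTX2 antibody (ChIP) and 1 library of input chromatin with no antibody. Every value therefore describes a single culture of a single line, with no replicate error and no OTX2-depleted arm, and it says where OTX2 was enriched, not whether a gene was expressed. In a bulk culture, binding in more cells and more binding per cell cannot be told apart.

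Proneural bHLH factors are transcription factors that commit neural progenitors to a neuronal fate. They pair with broadly expressed E proteins, bind the E-box sequence CANNTG, switch on Notch ligands and neuronal genes, and are held back by ID and HES proteins. Neurogenins and ATOH1 act early, at the choice to become a neuron, whereas NEUROD factors mostly act later, during differentiation. In the cerebellum, ATOH1 specifies granule neuron precursors of the rhombic lip, and NEUROD1 is needed for granule neurons to mature and survive. OTX2 is a homeodomain factor of the forebrain, midbrain and anterior hindbrain, and the study names TAATCC and TAATCT as its motifs.

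The number of OTX2 peaks differed from gene to gene, and 2 of the 8 genes had none. NEUROD1 and NEUROG1 had 17 peaks each, NEUROG2 had 11, NEUROD2 had 10, NEUROD4 had 6, ATOH1 had 1, and NEUROD6 and NEUROG3 had 0. Of the 62 peaks, 45 lay near NEUROD1, NEUROG1 or NEUROG2. By count NEUROD2 was close to NEUROG2, and with 100 kb on each side both had 17. Thus 6 of 8 genes had at least 1 peak, where 94.1% of all protein-coding genes (Wilson 95% interval 93.8 to 94.4) and 87.4% (86.4 to 88.3) of the 5067 protein-coding genes of at most 10 kb did. The members are short, with a median record of 2964 bp, and NEUROD1 and NEUROD4 are the only members longer than 10 kb. At least 10 peaks were found at 4 of 8 members, beside 37.3% of all protein-coding genes and 18.2% of the short ones. A count of 17 peaks or more was reached by 13.7% of all protein-coding genes and by 2.66% of the short ones. The median over the 8 members was 8 peaks, beside 7 over all protein-coding genes and 5 over the short ones. With 8 members these counts are a description, and no test of the list was made.

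**Figure D1:**
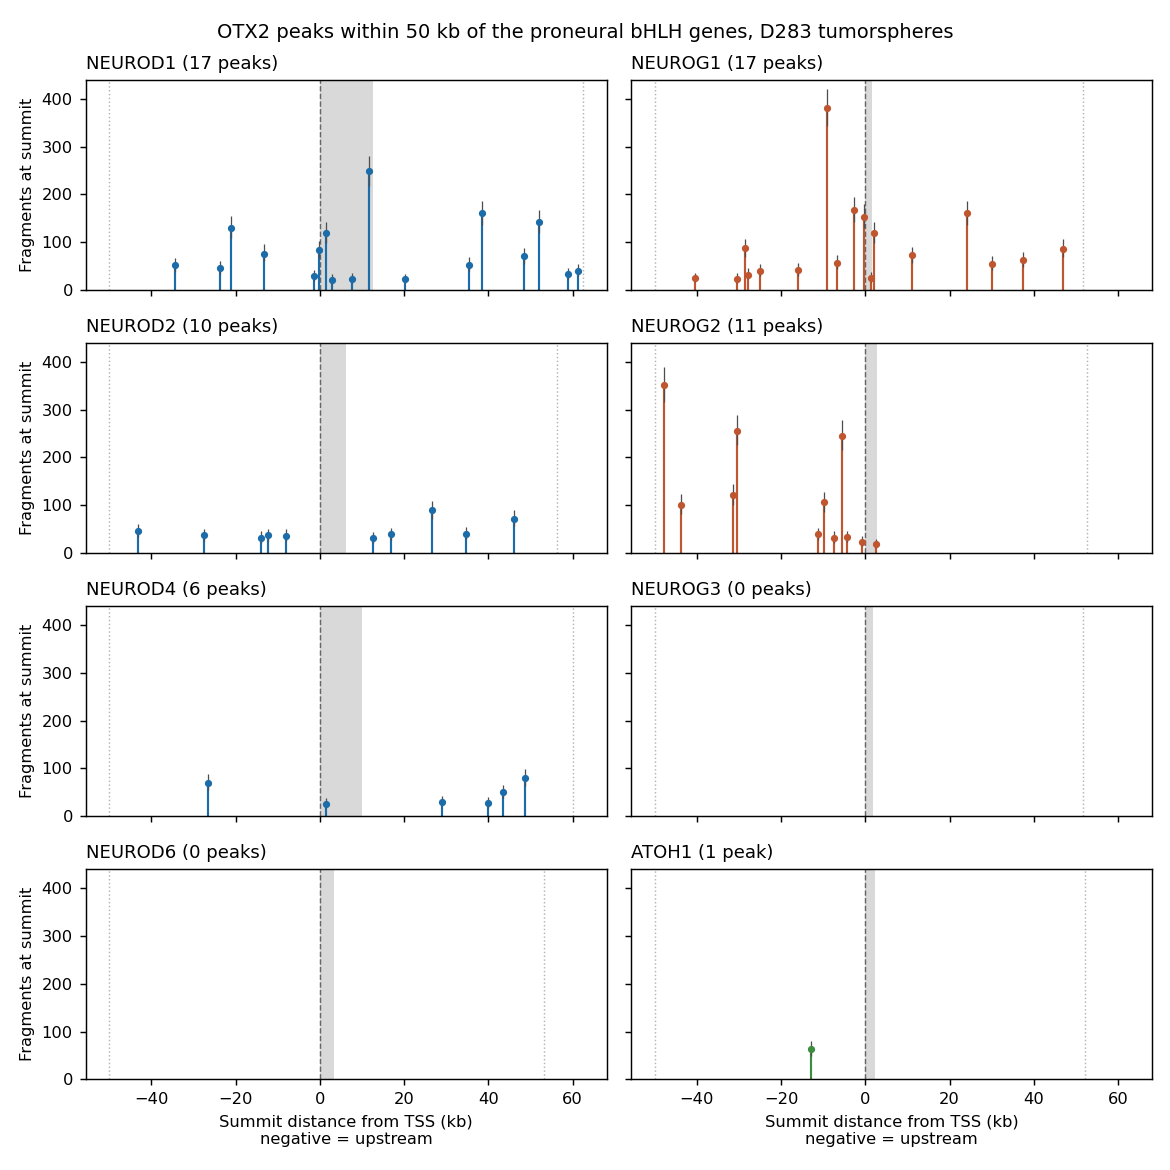
Each panel shows 1 gene, with the distance of each peak summit from the transcription start site (TSS) in kb on the horizontal axis and the number of ChIP fragments at the summit on the vertical axis. Thin bars are exact Poisson 95% intervals, grey marks the gene record and dotted lines mark the ends of the 50 kb window. By gene, the highest peak has 380 fragments at NEUROG1, 351 at NEUROG2 and 248 at NEUROD1, and the panels of NEUROD6 and NEUROG3 are empty.

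Peak heights were read as fragments, since each deposited pileup was a whole multiple of the value of 1 fragment. A typical peak of the series had 53 fragments at its summit and a 6.10-fold enrichment over local input, and the 95th percentiles were 219 fragments and 22.1-fold. The highest peak of each gene was 380 fragments at NEUROG1, 351 at NEUROG2, 248 at NEUROD1, 89 at NEUROD2, 80 at NEUROD4 and 63 at ATOH1. The exact Poisson 95% intervals, which cover counting error only, were 343 to 420, 315 to 390, 218 to 281, 71.5 to 110, 63.4 to 99.6 and 48.4 to 80.6 in that order. The intervals of NEUROG1 and NEUROG2 overlapped, and so did those of NEUROD2, NEUROD4 and ATOH1. The NEUROD1 interval overlapped that of no other gene. Overlap is not a test of equal height, and each value is the highest of a different number of peaks. A peak of at least 20-fold was present at 3 of 8 members, beside 33.1% of all protein-coding genes and 20.2% of the short ones.

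Most peaks lay more than 5 kb from the start sites, and so did most of the length of the windows, which were 102 to 113 kb long. A summit lay within 1 kb of the TSS at 3 of 8 members, NEUROD1, NEUROG1 and NEUROG2, beside 43.9% of all protein-coding genes and 31.8% of the short ones. The NEUROG2 peak was weak, with 23 fragments and a −log10 q of 4.13, below the alternative threshold of 5. Its summit also lay 128 bp from the start of the RefSeq entry LOC124900760. In the interval that the study used, which reaches 5 kb before and 2 kb past the TSS, NEUROD4 was added, giving 4 of 8 members beside 57.2% and 44.7%. Among the 62 peaks, 12 summits lay within 5 kb of the member's TSS, 17 lay between 5 and 20 kb, and 33 lay more than 20 kb away. These ranges differ in length, and the same split over all genes was not made, so it does not show whether peaks were sparse or dense near the starts. Upstream summits numbered 33 and downstream summits 29.

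Promoter sequences are printed for the 2 members whose upstream bases lay under an OTX2 peak, NEUROD1 and NEUROG1, and for the 2 members with no peak in the window, NEUROD6 and NEUROG3. All 8 members matched the RefSeq promoter table (GRCh38.p14), and the 250 bases upstream of the RefSeq gene start are given 5′ to 3′ with each E-box (CANNTG) in capitals.
NEUROD1 (chr2:181680518-181680767, minus strand): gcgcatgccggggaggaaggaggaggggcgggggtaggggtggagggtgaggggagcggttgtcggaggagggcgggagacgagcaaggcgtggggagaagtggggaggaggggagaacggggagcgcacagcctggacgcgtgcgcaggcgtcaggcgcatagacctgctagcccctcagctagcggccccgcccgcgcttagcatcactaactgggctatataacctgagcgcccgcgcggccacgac
NEUROG1 (chr5:135535965-135536214, minus strand): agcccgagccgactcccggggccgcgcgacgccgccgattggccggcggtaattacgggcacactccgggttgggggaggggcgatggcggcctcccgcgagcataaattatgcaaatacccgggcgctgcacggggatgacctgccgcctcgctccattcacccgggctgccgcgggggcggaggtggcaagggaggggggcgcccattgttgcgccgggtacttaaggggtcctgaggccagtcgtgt
NEUROD6 (chr7:31340727-31340976, minus strand): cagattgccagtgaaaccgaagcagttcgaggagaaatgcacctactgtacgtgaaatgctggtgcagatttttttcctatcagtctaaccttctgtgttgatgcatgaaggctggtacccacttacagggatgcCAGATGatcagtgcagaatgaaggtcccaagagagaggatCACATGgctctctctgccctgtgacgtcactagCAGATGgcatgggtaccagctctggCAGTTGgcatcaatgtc
NEUROG3 (chr10:69573423-69573672, minus strand): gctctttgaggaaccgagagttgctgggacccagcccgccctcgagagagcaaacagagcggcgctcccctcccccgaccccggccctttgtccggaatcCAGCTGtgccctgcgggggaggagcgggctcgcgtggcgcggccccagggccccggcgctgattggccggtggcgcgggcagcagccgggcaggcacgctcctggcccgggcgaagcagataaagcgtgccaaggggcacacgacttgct
The NEUROD1 bases lie within an exon of a longer GENCODE transcript with no defined coding sequence, and those of NEUROG1 lie in an intron of SLC25A48. The start of the GENCODE record of CERKL, a gene on the same strand as NEUROD1, also falls within the printed NEUROD1 bases. Both summits lay before the printed bases, 414 bp from the RefSeq start at NEUROD1 and 251 bp at NEUROG1. The NEUROG1 summit is thus the base next to the printed ones, a step far smaller than the fragment length of 234 bp. The bases lie under both peaks, and only those of NEUROD1 lie away from the summit. The printed bases of NEUROD1 and NEUROG1 held no E-box, whereas the NEUROD6 sequence held 4 and the NEUROG3 sequence held 1. Across the members, the upstream bases of NEUROD2 held 3 E-boxes, those of NEUROD4 held 2, those of ATOH1 held 1 and those of NEUROG2 held 0, and 61.8% of 35116 RefSeq promoters of the same length held at least 1. TAATCC was found on neither strand in any of the 8 sequences and neither was TAATCT, beside 5.62% and 6.41% of all promoters. No E-box of a member therefore shared bases with either OTX2 motif. A match or its lack describes these letters only.

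NEUROG1 (ENSG00000181965, chr5:135534282-135535964, minus strand) specifies sensory neurons and parts of the inner ear and hindbrain lineages. Its 17 peaks ranged from 23 to 380 fragments with a median of 62, and from 3.56-fold to 31.2-fold with a median of 6.74. The locus was covered on both sides, with 10 summits upstream and 7 downstream, and 6 summits lay within 10 kb of the TSS. The promoter peak, chr5:135535907-135536518, peaked 251 bp before the TSS and had 153 fragments (95% interval 130 to 179) and 20.8-fold enrichment. A further peak 2.71 kb upstream had 167 fragments (143 to 194) and 15.5-fold enrichment, and its interval overlapped that of the promoter peak. The strongest peak of the gene, and the highest pileup of any member, was chr5:135543200-135546574, with its summit 9.20 kb upstream, 380 fragments, 31.2-fold enrichment and a −log10 q of 310. It was 3375 bp long, where the median peak of the series was 440 bp. Downstream of the gene, peaks at 1.97 kb and 24.1 kb had 118 and 160 fragments.

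The NEUROG1 record lies inside an intron of SLC25A48, a mitochondrial carrier gene, and all 17 peaks were in SLC25A48 introns. By the nearest protein-coding TSS, 9 of the 17 peaks belonged to NEUROG1, 5 to CXCL14, a chemokine gene whose TSS is 43.3 kb upstream, and 3 to SLC25A48. The promoter peak and the 380-fragment peak were both among the 9. Of the 5 peaks nearer to CXCL14, 4 had 40 fragments or fewer and the other had 87.

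NEUROG2 (ENSG00000178403, chr4:112513516-112516180, minus strand) commits cortical and other progenitors to excitatory neurons. Its 11 peaks ranged from 19 to 351 fragments with a median of 101, the highest median of any member. Fold enrichment ran from 2.99 to 45.2 with a median of 12.2. Most of them lay before the gene, with 10 summits upstream and 1 downstream, the latter in a NEUROG2 exon with 19 fragments. Near the start, the peak 753 bp upstream had only 23 fragments (14.6 to 34.5) and 3.59-fold enrichment. The next strong peak, 5.53 kb upstream at chr4:112521124-112521965, had 245 fragments (215 to 278) and 25.9-fold enrichment. That interval lies wholly above the interval of the promoter-proximal peak, so the order between them exceeds counting error.

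Further upstream of NEUROG2, strong peaks lay in introns of ZGRF1, a helicase gene. The peak 30.4 kb upstream had 256 fragments (226 to 289) and 20.6-fold enrichment, and its neighbour at 31.4 kb had 121 fragments and 15.0-fold enrichment. The peak chr4:112563570-112564525, 47.7 kb upstream, had 351 fragments, 45.2-fold enrichment and a −log10 q of 336. Its fold enrichment exceeded that of 99.9% of all peaks. The strongest NEUROG1 peak had a lower fold, 31.2, although the fragment intervals overlapped, and local input was 4.73 pileup units at the NEUROG2 peak and 8.0 at the NEUROG1 peak. All 11 peaks had NEUROG2 as the nearest TSS by gene record, but by the start of any protein-coding transcript 9 did, since ZGRF1 transcripts begin 20.1 kb from the summit of the 45.2-fold peak and 24.1 kb from that of the peak 43.8 kb upstream.

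NEUROG3 (ENSG00000122859, chr10:69571698-69573422, minus strand), the neurogenin that specifies endocrine cells of the pancreas, had 0 peaks in its window. The nearest peak began 90.0 kb downstream in an intron of TSPAN15, a tetraspanin gene, with 281 fragments (249 to 316) and 23.1-fold enrichment. The flanks were unequal. Between 50 and 500 kb from the record, 1 peak lay upstream and 44 lay downstream. A count of 0 means that no region passed the caller's q cutoff of 0.05, and the weakest peak of the whole series had 15 fragments, so lower signal is not listed.

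ATOH1 (ENSG00000172238, chr4:93828753-93830964, plus strand), the rhombic lip factor of granule neuron precursors, had 1 peak. It was chr4:93815618-93815971, with its summit 12.9 kb upstream, 63 fragments (48.4 to 80.6), 6.76-fold enrichment and a −log10 q of 23.1, close to the median peak of the series. No peak lay in the gene or within 50 kb downstream of it. Within 100 kb there were 5 peaks in all, of which 4 were upstream. The strongest of these, 98.3 kb upstream, had 214 fragments and 17.6-fold enrichment, and the only downstream one, at 69.0 kb, had 43 fragments. Among protein-coding genes of at most 10 kb, 12.6% had fewer peaks than ATOH1 in the 50 kb window.

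NEUROD1 (ENSG00000162992, chr2:181668295-181680827, minus strand), the differentiation factor of granule neurons and of endocrine cells, had 17 peaks of 21 to 248 fragments with a median of 52. Fold enrichment ran from 2.67 to 26.2 with a median of 6.63. There were 6 summits upstream and 11 downstream of the TSS. The promoter peak, chr2:181680131-181681294, was 1164 bp long with its summit 104 bp upstream of the GENCODE start and 414 bp upstream of the RefSeq start, which lies 310 bp inside the GENCODE record. It had 83 fragments (66.1 to 103) and 12.4-fold enrichment. A peak 1.47 kb downstream of the TSS had 118 fragments (97.7 to 141) and 12.5-fold enrichment, and the intervals of these peaks overlapped. It lay in an exon when all NEUROD1 transcripts were used, with or without a defined coding sequence.

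The strongest NEUROD1 peak was not at the promoter but at the far end of the gene record. It was chr2:181668677-181669940, with its summit 11.6 kb downstream of the TSS in an exon of a NEUROD1 transcript without a defined coding sequence, 248 fragments, 26.2-fold enrichment and a −log10 q of 192. Its interval lay wholly above that of the promoter peak. Other strong peaks had 130 fragments at 21.1 kb upstream, 160 fragments at 38.5 kb downstream and 141 fragments at 52.0 kb downstream. The 11 downstream peaks all lay in introns of CERKL, a ceramide kinase-like gene whose record overlaps NEUROD1 and starts 162 bp from it. Given to the nearest gene record start, 6 of the 17 peaks belonged to NEUROD1 and 11 to CERKL, whereas 0 belonged to NEUROD1 when any protein-coding transcript start was used. GENCODE starts are thus too close to separate these genes, whereas in RefSeq CERKL starts 23.4 kb from NEUROD1. By RefSeq starts, a setting chosen after seeing the data, 10 of the 17 peaks were nearest to NEUROD1. The 26.2-fold peak was among them, but its summit lay 11240 bp from the NEUROD1 start, close to the midpoint between the starts.

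NEUROD2 (ENSG00000171532, chr17:39603536-39609777, minus strand), which acts in maturing cortical and cerebellar neurons, had 10 peaks, and all were modest. On the upstream side, summits at 8, 12.4, 13.9, 27.5 and 43.2 kb had 36, 37, 32, 37 and 46 fragments. On the downstream side, summits at 12.5, 16.8, 26.6, 34.8 and 46.1 kb had 31, 39, 89, 40 and 71 fragments. The last of these lay in an intron of CDK12. Fold enrichment ran from 2.56 to 9.49, and only 2 of the 10 peaks were above the median fold of all peaks. None touched the gene record, and the nearest edge was 6.11 kb away. The RefSeq start lies 1857 bp inside the GENCODE record, so the distances depend on the annotation by that much. By nearest gene record start, 6 peaks belonged to NEUROD2, 2 to PPP1R1B, the gene of the phosphatase inhibitor DARPP-32, 1 to STARD3, a lipid transfer gene, and 1 to TCAP, a sarcomere gene. The peak given to TCAP lay in a STARD3 intron, 115 bp from the start of a STARD3 transcript. By the start of any protein-coding transcript, 5 peaks belonged to NEUROD2.

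NEUROD4 (ENSG00000123307, chr12:55019974-55030017, plus strand), known for retinal and cranial sensory neurons, had 6 peaks. Their summits lay 26.5 kb upstream and 1.51, 28.9, 39.9, 43.5 and 48.6 kb downstream of the TSS, with 70, 26, 30, 27, 50 and 80 fragments. The peak at 1.51 kb was in a NEUROD4 intron, with 4.03-fold enrichment, and was the only one that touched the gene. Only the peak at 48.6 kb, with 11.0-fold enrichment, was above the median fold of all peaks. The upstream peak was nearest to TESPA1, a T cell gene whose TSS is 35.2 kb upstream, and its 70 fragments gave only 3.50-fold enrichment over a local input of 14 pileup units, the highest local input of the 62 peaks.

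NEUROD6 (ENSG00000164600, chr7:31337465-31340726, minus strand), a factor of postmitotic pyramidal neurons, had 0 peaks in its window. The nearest peak was 103 kb upstream, with 59 fragments (44.9 to 76.1) and 6.34-fold enrichment, an ordinary peak by the medians of the series. Among the 5067 short protein-coding genes, 12.6% likewise had 0 peaks. Chromosome 7 as a whole carried 27.3 peaks per Mb, beside 49.1 on the other autosomes, and its part in the empty window was not tested.

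**Figure D2:**
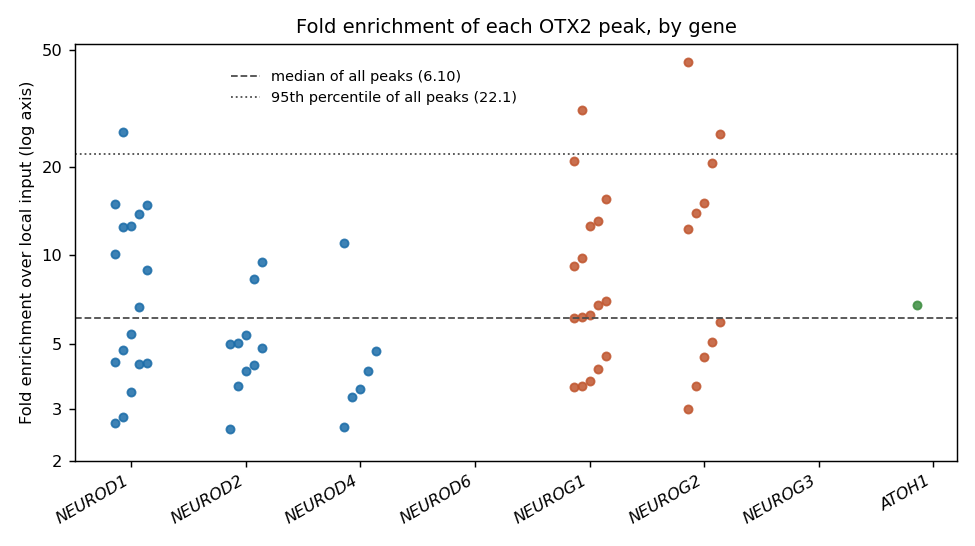
Each point is 1 OTX2 peak in the 50 kb window of the gene named on the horizontal axis, and the vertical axis is its fold enrichment over local input on a log scale. The dashed and dotted lines are the median (6.10) and the 95th percentile (22.1) of all peaks, and the points above the upper line belong to NEUROD1, NEUROG1 and NEUROG2.

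As a set, the peaks near proneural bHLH genes were close to the series in ordinary strength. Of the 62 peaks, 30 (48.4%) were above the median fold of all peaks, and 6 (9.68%) were of at least 20-fold, beside 6.72% of all peaks. The neurogenins held 5 of these 6. The 28 neurogenin peaks had a median of 67 fragments and 6.86-fold enrichment, and the 33 NEUROD peaks a median of 45 fragments and 4.84-fold enrichment. The families were not uniform. By gene, the median fold was 6.74 at NEUROG1 and 6.63 at NEUROD1, beside 12.2 at NEUROG2, 4.91 at NEUROD2 and 3.77 at NEUROD4. Peaks at the same locus are not independent, so these medians are given without a test. Upstream summits made up 20 of the 28 neurogenin peaks and 12 of the 33 NEUROD peaks. By gene they were 10 of 11 at NEUROG2, 10 of 17 at NEUROG1, 6 of 17 at NEUROD1, 5 of 10 at NEUROD2 and 1 of 6 at NEUROD4. By position, 6 of the 62 summits were in exons, 31 in introns only and 25 outside protein-coding genes. Exons of every transcript of a protein-coding gene were used here, including transcripts without a defined coding sequence. Local input was at its floor for 8 of the 62 peaks, or 12.9%, beside 26.4% of all peaks. For these peaks the fold enrichment rests on the genome average of the input library.

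The peaks were also spaced differently from gene to gene. The median gap between neighbouring summits was 2.83 kb at NEUROG2, 4.30 kb at NEUROD1 and 4.95 kb at NEUROG1, against 9.83 kb at NEUROD2 and 11.0 kb at NEUROD4. In the window, NEUROG1 had 16.7 peaks per 100 kb, NEUROD1 15.1, NEUROG2 10.7, NEUROD2 9.41, NEUROD4 5.45 and ATOH1 0.978. Between 50 and 500 kb on each side, the densities per 100 kb were 7.89, 4.89, 6.89, 7.89, 0.667 and 3.11 in the same order, beside 5.09 for the genome. NEUROD1 and NEUROG1 had more peaks per length than their own flanks, and so, at a lower level, did NEUROD4, whose flanks held 6 peaks in all. NEUROG2 and NEUROD2 stood less far above their flanks. ATOH1, NEUROG3 and NEUROD6 had fewer than their flanks, the last with 2.11 and NEUROG3 with 5 per 100 kb.

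**Figure D3:**
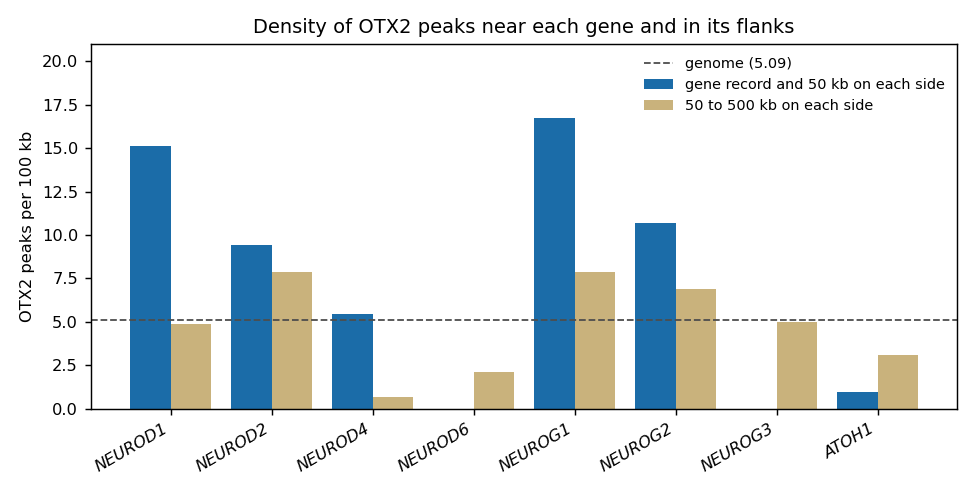
Bars give OTX2 peaks per 100 kb for each gene, in the gene record with 50 kb on each side (blue) and between 50 and 500 kb on each side (tan), and the dashed line is the genome (5.09). The blue bars of NEUROD1 (15.1) and NEUROG1 (16.7) stand far above the tan bars, and NEUROD6 and NEUROG3 have no blue bar.

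Genes that work with the proneural factors were counted in the same window. All 3 E protein genes, which encode the dimer partners, had peaks: TCF12 had 43 with a strongest of 29.7-fold, TCF4 had 33 with a strongest of 23.6-fold, and TCF3 had 9. These genes are long, with a median record of 380659 bp, and long windows hold more peaks. All 8 inhibitor genes had a peak, with a median of 16.5 peaks. At least 10 peaks were found at 5 of 8, beside 37.3% of all protein-coding genes and 18.2% of the short ones, and a peak of at least 20-fold at 0 of 8, beside 33.1% and 20.2%. The strongest among the inhibitors were 19.9-fold at ID1, which blocks E proteins, and 17.5-fold at HEY2, a Notch effector. Inhibitor genes are about as short as the members, with a median record of 3706.5 bp.

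Other neural bHLH genes and genes downstream of the proneural factors were counted likewise. All 11 other neural bHLH genes had a peak, their median was 5 peaks, 1 had at least 10, and 4 had a peak of at least 20-fold, to be read beside the same shares. The strongest was 30.1-fold at OLIG3, a hindbrain and spinal cord progenitor factor. Of 10 genes downstream of proneural factors, all had a peak, and the median was 8 peaks. At least 10 peaks were found at 4 of 10, beside 37.3% of all protein-coding genes and 18.2% of the short ones. A peak of at least 20-fold was present at 4 of 10, beside 33.1% and 20.2%. Their median record was 20865 bp, longer than that of the members, and long windows hold more peaks. The strongest peaks of the downstream genes were 32.9-fold at EBF2, a differentiation factor, and 28.7-fold at RND2, a small GTPase of neuron migration. The EBF2 record is 203689 bp long, and its strongest peak lay 214 kb downstream of the TSS. All 32 related genes thus had a peak, beside 6 of 8 members and 94.1% of all protein-coding genes.

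**Figure D4:**
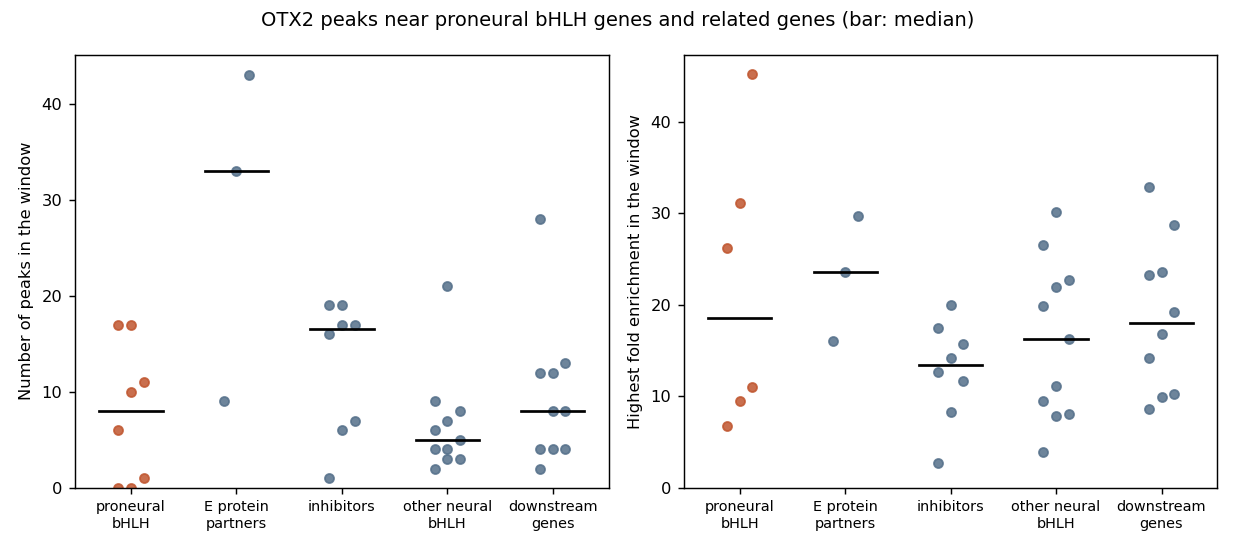
Each point is 1 gene of the group named on the horizontal axis, and horizontal bars are medians. The left panel gives the number of OTX2 peaks in the 50 kb window and the right panel the highest fold enrichment there, with NEUROD6 and NEUROG3 left out of the right panel. The medians of peak number are 8 for the proneural bHLH genes, 33 for E proteins, 16.5 for inhibitors, 5 for other neural bHLH genes and 8 for downstream genes.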

How the data were processed

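OTX2 ChIP and input DNA of D283 tumorspheres were sequenced by the authors, who aligned the reads with bowtie2 2.2.4 (GRCh38) and used MACS2 2.1.0.20140616 to call narrow peaks over the input (1 fragment kept per position, q cutoff 0.05). After duplicate removal, 61259377 ChIP and 22521186 input fragments remained, 2.72 times as many ChIP as input. The deposited pileup is a signal, the scaled fragment coverage at the summit, and 100% of the values were whole multiples of 0.735 (tolerance 0.02 fragments), from which fragments were recovered. As a ratio, the deposited fold enrichment divides pileup plus 1 by local input plus 1, and local input was solved from it. The deposited −log10 values are those of each peak's p-value and q-value. The study states that blacklisted regions were masked.

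Members and lists were chosen with earlier results of these data known. Gene records came from GENCODE release 44, whose GRCh38 positions are recorded in the annotation, and no coordinate was converted. Peaks sharing at least 1 bp with the record extended by 50 kb were counted, and distances were taken from the 5′ end of the record (TSS). All members were named, with neighbours that owned a peak and the 2 genes of highest fold in each list, except that some results under this rule are not reported here. Shares over genes had Wilson 95% intervals and fragments exact Poisson 95% intervals. Apart from the RefSeq promoter sequences, no sequence under peaks was used. Alternatives were other peak thresholds, windows, start sites and backgrounds. Counting was tested on simulated peaks, where 19881 of 19881 genes matched a direct comparison. Tables were handled in Python 3.11.15 (pandas 2.3.3, numpy 2.4.6), intervals came from scipy 1.17.1, and plots from matplotlib 3.10.9.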

Additional observations from a re-analysis of the deposited data

How the results depend on the processing

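The number of members with a peak stayed between 4 and 7 of 8 over the alternatives run. It was 4 in the promoter interval (5 kb before to 2 kb past the TSS), 5 with 10 kb on each side and 7 with 100 kb, where NEUROG3 was added. The 62 peaks became 36 at a fold enrichment of at least 5, 23 with 10 kb, 97 with 100 kb and 11 in the promoter interval. Peaks whose nearest TSS was the member's own numbered 38, 25 at a fold of at least 5, 31 with the start of any protein-coding transcript, and 46 with RefSeq starts, the last a setting chosen after seeing the data. Related genes with a peak fell to 19 of 32 in the promoter interval. Among all protein-coding genes the share holding a peak was 93.0% at a −log10 q of at least 5, 89.7% at a fold of at least 5, 83.1% with 10 kb, 97.3% with 100 kb, 57.2% in the promoter interval, 87.4% among genes of at most 10 kb and 93.6% with RefSeq records. Of 109 values for single genes (peak number or highest fold), 28 moved by more than 1.5 times, 21 down and 7 up, among them the highest fold near NEUROG2, 25.9 with 10 kb, since its 45.2-fold peak is 47.7 kb away. These settings change which peaks or genes are counted. No paired analysis was possible because there is 1 ChIP library and 1 input library. The input library is the shallower and limits the precision of fold enrichment, and without replicates only counting error is known.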

Other observations

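Outside the windows, strong OTX2 peaks lay at larger distances from several members, and the peak of highest fold enrichment is given for each. That peak between 50 and 500 kb of NEUROD2 was 154 kb upstream in an exon of IKZF3, with 312 fragments (exact Poisson 95% interval 278 to 349) and 25.1-fold enrichment, where the highest peak in the NEUROD2 window had 89 fragments. NEUROD4, whose window held at most 80 fragments, had a peak of 200 fragments (173 to 230) and 29.7-fold enrichment 319 kb upstream. At NEUROD1 it was 373 kb upstream in an intron of PPP1R1C, with 32.2-fold enrichment, where the highest fold in the window was 26.2, and with 266 fragments (235 to 300), an interval that overlaps that of the 26.2-fold peak. For NEUROD6 the peak of highest fold within 500 kb had 87 fragments (69.7 to 107) and 13.0-fold enrichment, 427 kb upstream in an intron of PDE1C. For NEUROG2 it was 32.2-fold, 231 kb upstream, below the 45.2-fold of its window. For NEUROG1 it was 27.4-fold with 204 fragments (177 to 234), below the 31.2-fold of its window. This NEUROG1 peak lay 53.1 kb downstream, just outside the window. For ATOH1 the peak of highest fold was 18.3-fold, above the 6.76-fold of its window, and for NEUROG3 it was the 23.1-fold peak given above. The flanks are far longer than the windows, and those of NEUROD2 held 71 peaks where its window held 10, so the maxima are not like for like. Which gene, if any, each of these peaks acts on was not tested.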
